A study of Mus musculus with 8 samples.

Results

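Ephrins, semaphorins and their receptors are cell surface and secreted signals that were named for steering axons and that also sort cells, set boundaries and guide vessels in epithelial organs. The set comprised every gene in the count table with the symbol of an ephrin (Efna, Efnb), an Eph receptor (Epha, Ephb), a semaphorin of classes 3 to 7, a plexin or a neuropilin. This gave 53 of 23284 genes, 28 ligands and 25 receptors, chosen by name and not by value. Gene expression was measured by sequencing polyadenylated RNA from 4 mouse alveolar organoid lines (SN2285, SN2286, SN2293 and SN2294), cultures of lung cells kept in FNHCAS medium in matrigel. All cells came from mice with an Sftpc-eGFP transgene, a reporter named for the surfactant protein C gene of alveolar type 2 (AT2) cells. A flow sorter split each line into cells with GFP (GFP-positive) and cells without it (GFP-negative), with no other treatment, giving 4 libraries per group and 8 in all. Neither the age of the mice nor the number of animals behind the lines stands in the labels, so p-values measure the spread between these lines.

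Ephrins are ligands held on the cell surface, the A class by a lipid anchor and the B class by a transmembrane stretch, and they bind Eph receptor tyrosine kinases on neighbouring cells. EphA receptors mostly take ephrin-A ligands and EphB receptors ephrin-B ligands, with Epha4 known to take both. Class 3 semaphorins are secreted and mostly signal through a neuropilin that holds the ligand and a plexin that carries the signal, while semaphorins of classes 4 to 7 stay on the membrane and mostly bind plexins directly. In the developing lung these families are known for roles in branching, vessel growth and innervation.

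Library totals were 5910344 to 16032633 counts, the lowest in the GFP-negative library of line SN2294, and the 53 genes took 0.418 to 0.532% of each total. The reporter's namesake Sftpc stood at 14804 to 19282 CPM (counts scaled to a common library size) with GFP and 438 to 1267 CPM without, which follows the sort labels. Among marker lists, the summed level of 8 AT2 genes was 40059 to 45580 CPM with GFP and 4716 to 6506 CPM without. Basal cell markers (6 of 6 lower in GFP-positive cells) summed to 21.0 to 66.9 CPM against 1632 to 2102 CPM, fibroblast markers (6 of 7 tested, all 6 lower) to 10.8 to 20.2 CPM against 380 to 694 CPM, and club cell markers (4 of 5 tested, 2 lower) to 28.1 to 147 CPM against 667 to 1236 CPM. AT1 markers, of the flat gas-exchange cells, had 5 of 8 higher and 1 lower (6 and 2 with line fitted, which added Hopx at an adjusted p of 0.0023 and Cav1 at 0.0078) and summed to 2605 to 3568 CPM against 1766 to 2452 CPM. Leukocyte markers summed to 13.0 to 21.1 CPM in GFP-positive libraries and to 31.0, 19.0, 28.9 and 81.7 CPM without GFP in SN2285, SN2286, SN2293 and SN2294. In SN2285, SN2286 and SN2293 without GFP that sum was mostly Cd68 (30.4, 17.5 and 27.9 CPM). Ptprc, Laptm5 and Tyrobp stood at 4.09, 10.2 and 7.40 CPM in SN2294 without GFP and at no more than 0.0804 CPM in any other library. Ciliated cell markers summed to 4.42 to 5.23 CPM with GFP and 5.04 to 17.3 CPM without. Endothelial markers summed to at most 1.10 CPM in any library, with Emcn at 0 throughout, and neuronal and neuroendocrine markers to at most 3.78 CPM, with Stmn2 at 0.

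Of the 53 guidance genes, 44 passed the filter on low counts (25 ligands and 19 receptors), and the other 9 were at or near 0. Between the sorts 12 were higher and 15 lower in GFP-positive cells at a false discovery rate (FDR) of 0.05, and 17 had no call. That is 27.3% higher and 34.1% lower, against 18.9% and 21.8% of all 12848 genes tested (40.7% in either direction). Fewer cells of a type and less RNA per cell cannot be told apart in such sorted bulk samples. All 12 higher genes had that direction in 4 of 4 lines, as did 14 of the 15 lower ones. The groups of libraries did not overlap for 12 of the 44 genes with GFP-positive above and 14 with GFP-negative above (18.0% and 21.6% of all genes tested, 39.5% together). At least 2-fold differences were called for 7 genes higher and 9 lower (4.41% and 11.1% of all genes tested). Among the lower genes, also at the 2-fold cut, were Epha3 and Sema6a. Both passed the filter only through their GFP-negative libraries, an entry that favours a lower call. The median log2 fold change was -0.07 over the 44 and -0.01 over all genes tested.

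The difference between receptors and ligands was not tested. Of 19 receptors tested, 8 were higher and 6 lower in GFP-positive cells, with a median log2 fold change of -0.09. Of 25 ligands tested, 4 were higher and 9 lower, with a median of -0.06. Once the fit allowed for the organoid line, 7 ligands were higher and 9 lower, and 8 receptors were higher and 7 lower, against 48.0% of all genes called in that fit. The genes added were Sema4g (adjusted p = 0.033), Sema5a (0.039) and Sema7a (0.026) among the higher and Plxna3 (0.016) among the lower. Scaling to the library total alone shifted the median of all genes to -0.16 and their calls from 2430 higher and 2801 lower to 1509 higher and 4188 lower, and with it the receptors went to 7 higher and 10 lower and the ligands to 4 higher and 10 lower. Leaving out the shallow SN2294 library without GFP, the counts were 5 higher and 8 lower for ligands and 8 higher and 6 lower for receptors.

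**Figure D1:**
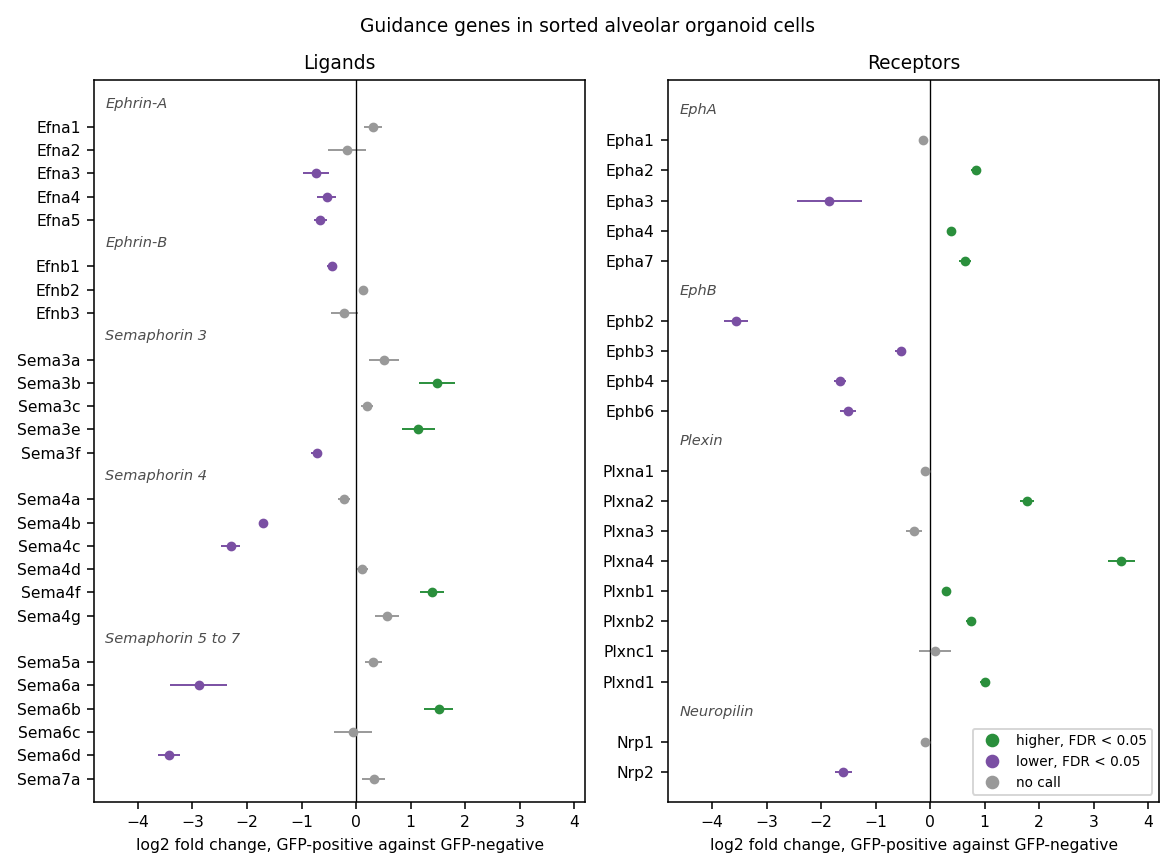
Log2 fold change of each of the 44 tested guidance genes, GFP-positive against GFP-negative (horizontal axis; bars, 1 SE; n = 4 libraries per group), with ligands on the left and receptors on the right. All 4 EphB genes lie to the left of 0, and the called plexins Plxna2, Plxna4, Plxnb1, Plxnb2 and Plxnd1 lie to the right.

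Below, log2 fold changes above 0 mean more RNA in GFP-positive cells, adjusted p comes from the quasi-likelihood test of edgeR over all genes, and means are given ± SD with n = 4. Counts of called genes per family stand beside 18.9% higher and 21.8% lower over all genes tested, and the families are small. The words "with GFP" and "without" stand for the libraries of the 2 sorts, and values per library follow the order SN2285, SN2286, SN2293 and SN2294. EphB receptors, kinases that in intestinal epithelium are known to keep progenitors and mature cells apart, were all lower in GFP-positive cells: 4 of 4 tested members fell. Ephb2 stood at 16.8, 10.9, 10.9 and 9.68 CPM with GFP and 178, 139, 148 and 103 CPM without. The lowest GFP-negative library was far above the highest GFP-positive one, and the fitted level was 11.8-fold lower with GFP (log2 fold change -3.56 with an SE of 0.22, adjusted p = 1.9e-06). Ephb4, known as the ephrin-B2 receptor of veins, stood at 24.1, 28.4, 29.2 and 26.4 CPM against 79.8, 103, 75.8 and 80.3 CPM, again without overlap (log2 fold change -1.65, SE 0.11, adjusted p = 3.8e-07); 0.711% of its exon bases overlap Zan on the other strand in GENCODE M21. Ephb6, a member without kinase activity, stood at 9.50, 7.81, 7.40 and 5.98 CPM against 24.3, 21.0, 20.7 and 20.6 CPM, each line lower in its GFP-positive library (log2 fold change -1.51, SE 0.15, adjusted p = 7.4e-06). Ephb3 fell by less, from 40.5 ± 5.32 to 27.7 ± 1.12 CPM (log2 fold change -0.54, adjusted p = 0.0012). Ephb1 had 0 counts in every GFP-positive library and 1 to 5 in the GFP-negative ones and was not tested.

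EphA receptors moved mostly the other way, with 3 of 5 tested members higher and 1 lower (60% and 20%, against 18.9% and 21.8% of all genes tested). Epha2, an Eph kinase widely carried by epithelial cells, stood at 910, 892, 917 and 996 CPM with GFP and 520, 463, 544 and 560 CPM without. The groups were apart in all lines, and the difference was 1.78-fold (log2 fold change 0.83, SE 0.08, adjusted p = 5.2e-06). Epha7 stood at 111, 142, 125 and 129 CPM against 74.5, 96.2, 81.9 and 71.5 CPM, with every GFP-positive library above every GFP-negative one (log2 fold change 0.64, SE 0.10, adjusted p = 3.9e-04). Epha4, the receptor that takes ligands of both classes, was at 134 ± 5.16 against 103 ± 7.75 CPM (log2 fold change 0.38, adjusted p = 0.0011). Epha1 had no call at 93.1 ± 2.76 against 102 ± 7.55 CPM (adjusted p = 0.15) and was lower with scaling to the library total alone (log2 fold change -0.28, adjusted p = 0.0059). A part of its exons, 6.01%, overlaps Zyx on the other strand in the GENCODE M21 annotation, and whether counting used strand is not given in the sources used here.

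Epha3, a receptor known in mesenchyme, was the lower EphA gene and the one that stood nearest to the filter, with 85 counts over all libraries. Only its GFP-negative libraries took it past that filter, with 2 to 8 counts per GFP-positive library. It was at 0.685, 0.286, 0.161 and 0.390 CPM with GFP and 0.735, 1.18, 0.912 and 3.46 CPM without, the highest of them in line SN2294 (log2 fold change -1.85, SE 0.60, adjusted p = 0.027). The call was lost without the GFP-positive library of line SN2286 (adjusted p = 0.064), SN2293 (0.072) or SN2294 (0.056), and with SN2294 removed altogether and line fitted (log2 fold change -1.31, adjusted p = 0.055). Without both libraries of SN2285 in that fit the log2 fold change was -2.65. Epha5, Epha6, Epha8 and Epha10 were not tested, with Epha8 at 0 counts in every library and the others at 0 to 7.

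Set against each other per kilobase of exon, the Eph receptors of GFP-positive cells were mainly Epha2, at 75.0% ± 0.90 of the summed Eph level, against 55.7% ± 3.09 in GFP-negative cells. EphB genes made up 4.91% ± 0.37 of the summed Eph level in GFP-positive and 20.7% ± 2.10 in GFP-negative libraries, ranging over 4.36 to 5.16% and 18.7 to 23.3%. These shares are descriptions without a test, and they use exon lengths of GENCODE M21 in place of the annotation behind the counts, which is not given in the sources used here.

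The promoters of the 4 EphB genes that fell and the 3 EphA genes that rose are shown so that both groups can be read side by side. Each run is the 250 bases before a RefSeq transcript start (GRCm38.p6), 5′ to 3′ on the gene's strand, and for Epha7 the more upstream of 2 overlapping windows. Capitals mark letters found by a search of both strands for TGANTCA (AP-1), GGAATG (TEAD), CACTTG (NKX2 family), CAGGTG (Snail and Zeb repressors), TGGGAA (RBPJ) and TTGCNNAA (C/EBP); no 2 matches overlap in these windows.
Ephb2 (chr4:136836013-136836262, minus strand): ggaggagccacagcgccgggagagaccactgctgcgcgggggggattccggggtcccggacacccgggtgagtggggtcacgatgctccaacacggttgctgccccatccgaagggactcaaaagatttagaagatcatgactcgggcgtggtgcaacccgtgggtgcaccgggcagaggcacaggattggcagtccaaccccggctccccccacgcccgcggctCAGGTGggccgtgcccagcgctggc
Ephb3 (chr16:21204545-21204794, plus strand): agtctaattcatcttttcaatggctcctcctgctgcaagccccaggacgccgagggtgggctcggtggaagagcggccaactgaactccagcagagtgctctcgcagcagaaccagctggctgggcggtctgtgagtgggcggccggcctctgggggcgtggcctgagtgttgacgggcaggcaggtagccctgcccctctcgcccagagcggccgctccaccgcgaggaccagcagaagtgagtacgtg
Ephb4 (chr5:137349859-137350108, plus strand): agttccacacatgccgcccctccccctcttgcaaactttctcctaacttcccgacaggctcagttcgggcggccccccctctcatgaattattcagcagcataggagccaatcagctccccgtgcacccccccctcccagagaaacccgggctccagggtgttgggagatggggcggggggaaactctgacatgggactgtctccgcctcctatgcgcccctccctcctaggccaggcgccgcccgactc
Ephb6 (chr6:41605261-41605510, plus strand): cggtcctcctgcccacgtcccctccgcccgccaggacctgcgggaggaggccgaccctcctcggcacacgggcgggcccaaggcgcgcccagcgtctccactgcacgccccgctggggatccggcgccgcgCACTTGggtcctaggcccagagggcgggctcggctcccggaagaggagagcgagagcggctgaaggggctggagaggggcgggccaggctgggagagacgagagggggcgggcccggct
Epha2 (chr4:141300971-141301220, plus strand): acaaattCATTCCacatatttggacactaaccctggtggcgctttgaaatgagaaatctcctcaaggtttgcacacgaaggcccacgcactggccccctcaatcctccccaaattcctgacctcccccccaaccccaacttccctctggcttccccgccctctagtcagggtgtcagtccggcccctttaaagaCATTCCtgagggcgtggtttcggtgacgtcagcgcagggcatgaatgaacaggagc
Epha4 (chr1:77515089-77515338, minus strand): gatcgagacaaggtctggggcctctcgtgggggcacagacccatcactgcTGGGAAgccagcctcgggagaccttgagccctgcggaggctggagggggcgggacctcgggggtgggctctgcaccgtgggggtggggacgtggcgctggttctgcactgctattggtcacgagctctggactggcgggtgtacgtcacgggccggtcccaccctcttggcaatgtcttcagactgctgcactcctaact
Epha7 (chr4:28812881-28813130, plus strand): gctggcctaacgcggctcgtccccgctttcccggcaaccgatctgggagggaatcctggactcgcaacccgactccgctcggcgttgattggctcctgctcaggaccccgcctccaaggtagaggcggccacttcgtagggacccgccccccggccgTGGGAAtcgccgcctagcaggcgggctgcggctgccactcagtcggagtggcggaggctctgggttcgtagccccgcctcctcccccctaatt
Ephb2 held 1 CAGGTG, 25 bases before the start, and Ephb6 1 CACTTG, while Ephb3 and Ephb4 held none of the 6 strings. Epha2 held GGAATG, read on the other strand, at 243 and 56 bases before the start, and Epha4 and Epha7 1 TGGGAA each. Windows were at hand for 47 of the 53 guidance genes, among them 10 that were higher and 13 that were lower. GGAATG was found in 3 of those 10 and 1 of those 13 genes, against 14.4% of all 27025 genes with a window (12.6% of windows). TGGGAA was found in 3 of 10 and 2 of 13 (24.1% of genes, 21.6% of windows), CAGGTG in 2 of 10 and 3 of 13 (19.4% and 17.2%), CACTTG in 0 of 10 and 2 of 13 (13.2% and 11.6%), TGANTCA in 1 of 10 and 1 of 13 (7.82% and 6.75%) and TTGCNNAA in 0 of 10 and 0 of 13 (10.8% and 9.56%). A match is a string of letters and says nothing of binding.

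Ephrin ligands fell or had no call: of 8 tested, 4 were lower, 0 higher and 4 without a call. That is 50% lower, against 21.8% of all genes tested. Efna5, an ephrin-A known in boundary formation, was at 27.2 ± 1.24 CPM with GFP and 43.1 ± 8.22 CPM without (log2 fold change -0.65, adjusted p = 0.0012). Efnb1, the X-linked ephrin-B known for sorting cells, was at 35.5 ± 2.31 against 48.2 ± 3.64 CPM (log2 fold change -0.44, adjusted p = 0.0016), and in both genes the groups did not overlap. Efnb2, the arterial ligand of Ephb4, was at 129 ± 9.55 against 118 ± 9.62 CPM without a call (log2 fold change 0.13, adjusted p = 0.23), and its sign turned with scaling to the library total alone (-0.02).

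Efna1, Efna3 and Efna4 lie next to each other on chromosome 3 and differed in their calls. Efna1, the ligand often paired with Epha2, had no call at 20.1 ± 4.58 against 16.2 ± 1.66 CPM (log2 fold change 0.31, adjusted p = 0.16), but was called without the GFP-positive library of line SN2294 (log2 fold change 0.46, adjusted p = 0.017). Efna3 was lower at 6.77 ± 2.02 against 11.4 ± 2.48 CPM (log2 fold change -0.74, adjusted p = 0.030), though line SN2293 showed no difference, with 8.36 and 8.27 CPM. Its call was lost without the GFP-positive library of line SN2286 (adjusted p = 0.060) or SN2294 (0.052), or the GFP-negative one of SN2285 (0.072) or SN2294 (0.072), and, with line fitted, without all of SN2285 (0.093) or SN2286 (0.11). Efna4 was lower at 8.15 ± 1.89 against 11.9 ± 0.91 CPM (log2 fold change -0.54, adjusted p = 0.030), a call lost without the GFP-positive library of line SN2286 (adjusted p = 0.057) or the GFP-negative one of SN2285 (0.082), and, with line fitted, without all of SN2286 (0.063). Efna2 at 1.49 ± 0.438 against 1.66 ± 0.516 CPM and Efnb3 at 2.24 ± 0.387 against 2.56 ± 0.563 CPM were low in both groups and had no call.

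**Figure D2:**
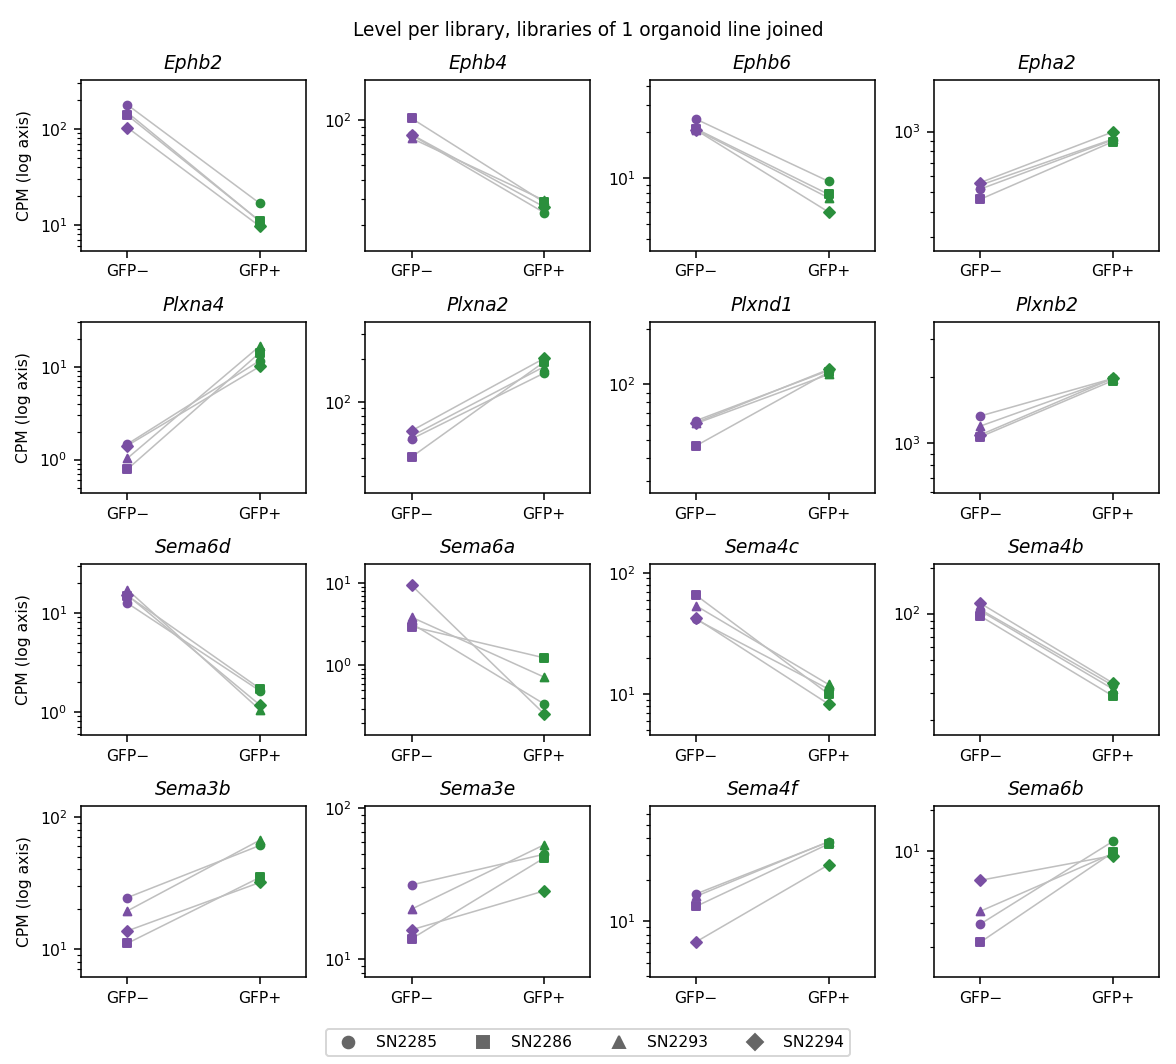
CPM per library on a log axis for 16 guidance genes, GFP-negative on the left and GFP-positive on the right of each panel, with the 2 libraries of a line joined. In 15 of the panels the groups are apart; for Sema3e they overlap, since its GFP-negative level in SN2285, 31.0 CPM, exceeds its GFP-positive level in SN2294, 28.3 CPM.

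Plexins, the transmembrane receptors of semaphorins that act on small GTPases, rose with GFP in 5 of 8 tested members and fell in 0 (4 and 2 with scaling to the library total alone, 5 and 1 with line fitted). In the main fit that is 62.5% higher, against 18.9% of all genes tested. Plxna4, a plexin best known from neurons, stood at 11.6, 14.2, 16.7 and 10.1 CPM with GFP and 1.47, 0.788, 1.03 and 1.42 CPM without. The difference was 11.4-fold, the largest rise in the set (log2 fold change 3.51, SE 0.25, adjusted p = 6.4e-07). Plxna2 stood at 160, 192, 177 and 203 CPM against 54.6, 40.8, 57.3 and 62.5 CPM, without overlap between the groups (log2 fold change 1.77, SE 0.13, adjusted p = 8.6e-07). Plxnd1, the receptor that takes Sema3e without a neuropilin and is known for vessel patterning, stood at 119, 116, 113 and 120 CPM against 63.7, 46.5, 61.4 and 62.2 CPM, with every GFP-positive library above every GFP-negative one (log2 fold change 1.01, SE 0.10, adjusted p = 5.9e-06).

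Plexin-B receptors are known to bind class 4 semaphorins. Plxnb2 stood at 1976, 1934, 1972 and 1978 CPM with GFP and 1335, 1072, 1201 and 1095 CPM without, a narrow GFP-positive range above all GFP-negative values (log2 fold change 0.74, SE 0.08, adjusted p = 1.5e-05). Plxnb1 was at 668 ± 55.1 against 545 ± 39.1 CPM (log2 fold change 0.29, adjusted p = 0.013), a call lost with scaling to the library total alone (log2 fold change 0.14, adjusted p = 0.18). Plxna1, Plxna3 and Plxnc1 had no call. Plxna1 was at 277 ± 12.7 against 296 ± 14.0 CPM and Plxna3 at 34.3 ± 6.58 against 42.1 ± 6.51 CPM (adjusted p = 0.31 and 0.14), and both were lower with scaling to the library total alone (adjusted p = 0.015 and 0.030). Plxna3 was also lower with line fitted (adjusted p = 0.016). Plxnc1, the Sema7a receptor known from myeloid cells, was at 3.07, 3.74, 2.74 and 7.40 CPM in GFP-negative libraries and at 4.29 ± 0.384 CPM in GFP-positive ones (adjusted p = 0.85). Its highest value was in SN2294, the shallowest library, where the leukocyte marker sum was also highest (81.7 CPM). Among the other lines Plxnc1 was highest where that sum, there mostly Cd68, was lowest (19.0 CPM in SN2286). A link was not tested. Plxnb3, with 1 to 6 counts per library, was not tested.

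Of the neuropilins, which serve both class 3 semaphorins and vascular endothelial growth factors (VEGF), Nrp2 fell and Nrp1 had no call. Nrp2 stood at 17.3, 15.99, 15.3 and 15.01 CPM with GFP and 43.6, 35.4, 50.3 and 63.6 CPM without, with the groups apart (log2 fold change -1.59, SE 0.16, adjusted p = 9.8e-06). Nrp1 was at 152 ± 8.76 against 162 ± 9.76 CPM (log2 fold change -0.09, adjusted p = 0.33), and was lower with scaling to the library total alone (adjusted p = 0.011). Per kilobase of exon, Nrp2 made up 7.95% ± 0.61 of the neuropilin level in GFP-positive and 19.7% ± 4.60 in GFP-negative libraries.

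Class 3 semaphorins, the secreted ones, split. Sema3b, known as a candidate tumour suppressor of the lung in humans, stood at 60.6, 34.7, 66.5 and 31.8 CPM with GFP and 24.5, 11.03, 19.4 and 13.7 CPM without, higher in each line (log2 fold change 1.48, SE 0.34, adjusted p = 0.0089). Sema3e, the Plxnd1 ligand, stood at 49.6, 46.8, 57.3 and 28.3 CPM against 31.0, 13.6, 21.4 and 15.6 CPM, higher in 4 of 4 lines although the groups overlapped (log2 fold change 1.14, SE 0.31, adjusted p = 0.018). Sema3f, the Nrp2 ligand, went the other way, at 69.0 ± 5.82 against 113 ± 14.99 CPM (log2 fold change -0.72, adjusted p = 1.2e-04). Sema3b and Sema3f lie on chromosome 9 with 3 coding genes between them, Gnai2, Slc38a3 and Gnat1, in the RefSeq annotation.

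Sema3a, the classical ligand of Nrp1, had no call at 13.1, 11.1, 11.6 and 8.64 CPM against 6.55, 4.27, 8.94 and 12.3 CPM (log2 fold change 0.51, adjusted p = 0.17), with line SN2294 lower and the other lines higher in the GFP-positive library. Once the SN2294 library without GFP was left out it was called (log2 fold change 0.75, adjusted p = 0.031). Sema3c, known from lung branching, had no call at 47.0 ± 5.74 against 40.8 ± 5.30 CPM (adjusted p = 0.19) and passed with line fitted and without both libraries of SN2285 (log2 fold change 0.31, adjusted p = 0.043). Sema3d, at 1 to 7 counts, and Sema3g, at 0 to 2, were not tested.

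Class 4 semaphorins, membrane ligands that mostly bind B-type plexins, had 1 of 6 members higher and 2 lower (2 and 2 with line fitted, which added Sema4g). In the main fit that is 16.7% and 33.3%, against 18.9% and 21.8% of all genes tested, a small difference for 6 genes. Sema4b had the smallest p of the set. It stood at 33.8, 28.8, 32.1 and 35.1 CPM with GFP and 106, 96.1, 104 and 117 CPM without, 3.25-fold apart (log2 fold change -1.70, SE 0.09, adjusted p = 4.6e-08). Sema4c, a Plxnb2 ligand, stood at 10.96, 9.996, 11.98 and 8.25 CPM against 41.2, 65.3, 53.5 and 42.0 CPM, all GFP-positive libraries lower (log2 fold change -2.30, SE 0.17, adjusted p = 1.2e-06). Sema4f rose, at 37.5, 36.3, 37.7 and 25.6 CPM against 15.8, 12.8, 15.1 and 7.08 CPM, with line SN2294 lowest in both sorts (log2 fold change 1.40, SE 0.22, adjusted p = 4.3e-04).

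The other class 4 genes had no call. Sema4a was at 21.6 ± 2.81 against 25.1 ± 1.17 CPM (adjusted p = 0.14) and was lower with scaling to the library total alone (adjusted p = 0.021). Sema4d, the Plxnb1 ligand, was at 46.6 ± 4.19 against 43.1 ± 5.27 CPM (adjusted p = 0.41), turned sign with that scaling (log2 fold change -0.03) and passed with line fitted and without both libraries of SN2294 (log2 fold change 0.22, adjusted p = 0.030). Sema4g was low, at 4.41 ± 0.813 against 2.91 ± 0.494 CPM, with the groups apart (log2 fold change 0.57, adjusted p = 0.064), and was called without the GFP-positive library of SN2294 (log2 fold change 0.68, adjusted p = 0.038).

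Transmembrane semaphorins of class 6, which bind A-type plexins, held the largest fall among the ligands. Sema6d stood at 1.63, 1.71, 1.05 and 1.17 CPM with GFP and 12.6, 14.97, 17.2 and 15.1 CPM without, 10.8-fold apart in the same direction in each line (log2 fold change -3.44, SE 0.20, adjusted p = 1.3e-07). Sema6a stood at 0.342, 1.24, 0.724 and 0.260 CPM against 3.21, 2.95, 3.83 and 9.29 CPM, highest in the GFP-negative library of SN2294 (log2 fold change -2.88, SE 0.53, adjusted p = 0.0010). Only its GFP-negative libraries took it past the filter on low counts. With line fitted, its log2 fold change was -2.14 without both libraries of SN2294 (adjusted p = 2.9e-05) and -3.54 without both of SN2286 (adjusted p = 1.5e-04). Sema6b rose against its class, at 11.8, 9.81, 9.65 and 9.29 CPM against 2.94, 2.17, 3.65 and 6.14 CPM, with the groups apart (log2 fold change 1.52, SE 0.26, adjusted p = 6.6e-04). Sema6c had no call at 1.34 ± 0.322 against 1.46 ± 0.566 CPM.

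The remaining ligands were without a call in the fit by sort. Sema7a, a semaphorin held by a lipid anchor that binds Plxnc1 and integrins, was at 73.9 ± 16.2 against 59.1 ± 14.6 CPM (log2 fold change 0.32, adjusted p = 0.28), and was higher with line fitted (adjusted p = 0.026). Sema5a was at 51.3 ± 7.80 against 41.0 ± 8.83 CPM (log2 fold change 0.31, adjusted p = 0.13), called without the GFP-negative library of SN2293 (log2 fold change 0.47, adjusted p = 0.017). It was also higher with line fitted (adjusted p = 0.039). Sema5b had 0 counts in every library.

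**Figure D3:**
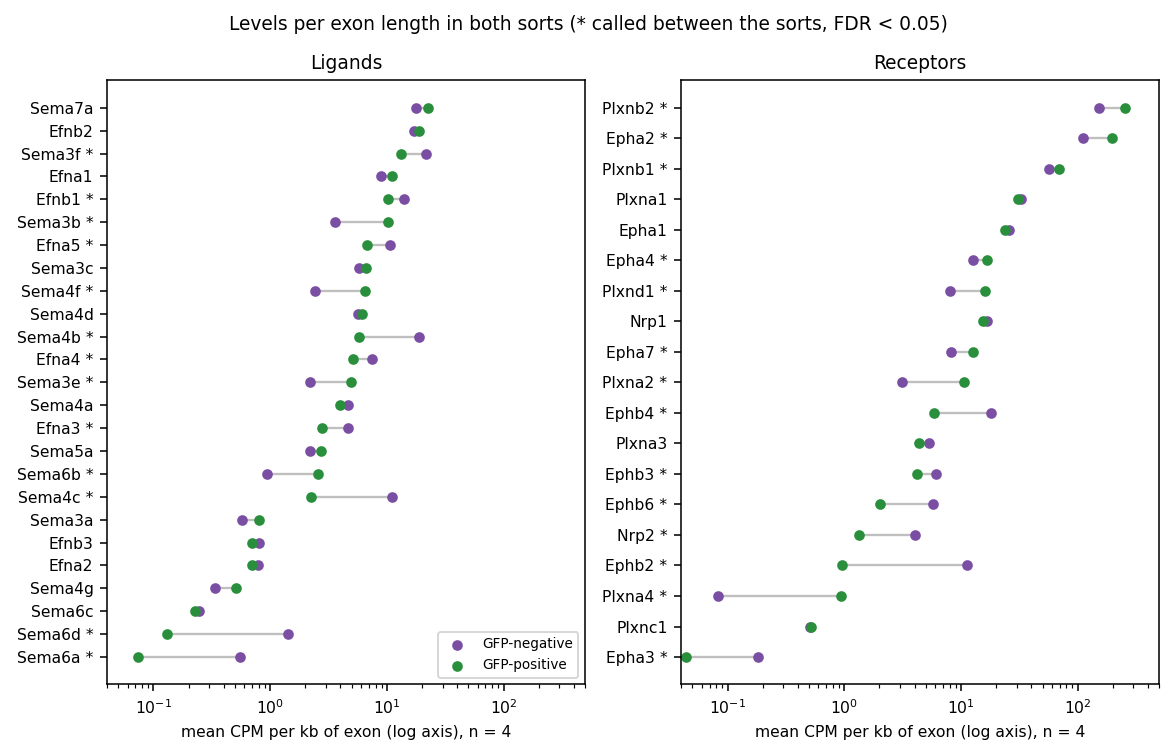
Mean CPM per kilobase of exon (log axis, n = 4 libraries per group) for tested ligands (left) and receptors (right), ordered by the GFP-positive level, with a line joining the sorts. Plxnb2, Epha2 and Plxnb1 are at the top of the receptors in both sorts, and Sema6d, Sema6a, Ephb2 and Plxna4 show the widest gaps.

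On the per-kilobase scale, which allows levels to be set between genes, Plxnb2 and Epha2 stood first and second of the 53 genes in both sorts, at 255 and 199 CPM per kb in GFP-positive and 152 and 112 CPM per kb in GFP-negative cells. Plxnb1 followed at 69.6 and 56.9 CPM per kb and Plxna1 at 30.6 and 32.7. The most abundant ligand was Sema7a in GFP-positive cells, at 22.4 CPM per kb, and Sema3f in GFP-negative cells, at 21.8 CPM per kb. Ephb2 went from rank 34 in GFP-positive to rank 14 in GFP-negative cells, Sema4b from rank 22 to 7, and Plxna2 the other way, from rank 14 to 30. Class 4 genes made up 28.4% ± 1.95 of the summed semaphorin level in GFP-positive and 42.9% ± 3.96 in GFP-negative libraries, and class 3 genes 40.2% ± 0.87 and 33.9% ± 2.86. Plxna4 stayed low per kilobase in both sorts, at 0.933 against 0.0835 CPM per kb.

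Ligands and receptors known to bind each other were set side by side in 25 pairs, 24 of them with both genes tested and 12 with both genes called. In 6 of the 12 the ligand was lower and the receptor higher in GFP-positive cells. These were Efna4 with Epha2, Efna5 with Epha4 and with Epha7, Sema4c with Plxnb2, and Sema6a with Plxna4 and with Plxna2. In 4 pairs both genes were lower (Efna5 with Epha3, Efnb1 with Ephb2 and with Ephb3, Sema3f with Nrp2), in 1 both were higher (Sema3e with Plxnd1), and in 1 the ligand was higher and the receptor lower (Sema3b with Nrp2). Sema6a and Plxna4 were the pair farthest apart, at log2 fold changes of -2.88 and 3.51, with Sema6a at only 0.260 to 1.24 CPM with GFP. Sema6b, of the same class that binds A-type plexins, was in no listed pair. It rose (log2 fold change 1.52), as Plxna4 and Plxna2 did, so the split of the pairs depends on the list. The pairs share genes and were listed from general knowledge with earlier results of these data known, so the counts are a description.

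**Figure D4:**
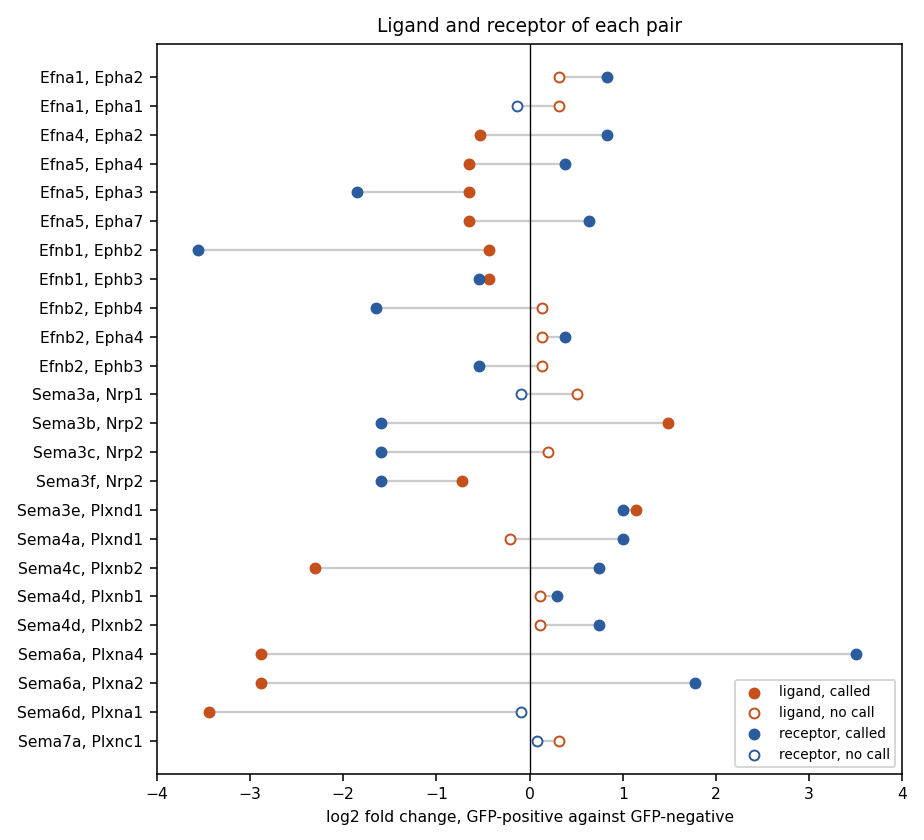
Log2 fold change of ligand (orange) and receptor (blue), GFP-positive against GFP-negative, for the 24 pairs with both genes tested; filled points were called at an FDR of 0.05. In 6 pairs a called ligand lies left of 0 and a called receptor right of it, widest for Sema6a and Plxna4 at -2.88 and 3.51.

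The 4 organoid lines were also compared, with the sort as a term, to ask which genes differ between lines alike in both sorts. Of the 44 genes, 3 were called (Sema3b, Ephb2 and Sema4f), against 5.32% of all genes tested (683 genes). On simulated counts this test made 28 false calls, more than its FDR allows, so its calls need caution. The simulated noise was wider than that of the test on the data, so the number of false calls here is not known. Sema3b was high in SN2285 and SN2293 and low in SN2286 and SN2294 in both sorts (adjusted p = 0.0017), and it was called under every alternative tried, with adjusted p of at most 0.011. Ephb2 was highest in SN2285 and lowest in SN2294 in both sorts (adjusted p = 0.0080), a call lost without SN2285 (adjusted p = 0.17). Sema4f was lowest in SN2294 (adjusted p = 0.044), which was lost without SN2294 (adjusted p = 0.67), without SN2293 (0.064) and with scaling to the library total alone (0.051). The difference of Ephb2 between the sorts was as large within each line, at log2 ratios of -3.37, -3.60, -3.70 and -3.35.

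**Figure D5:**
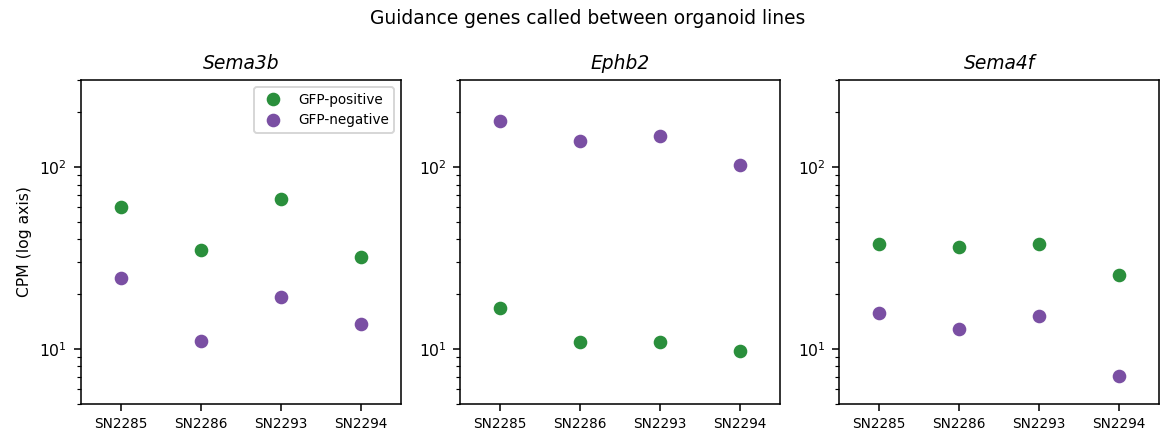
CPM on a log axis of the 3 guidance genes called between organoid lines, per line, GFP-positive in green and GFP-negative in purple. Sema3b is high in SN2285 and SN2293 in both sorts, and Sema4f is lowest in SN2294 in both.

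Genes that act with these families were followed in lists named after their role, and their counts stand beside 18.9% higher and 21.8% lower over all genes tested. Of 18 tested genes that act on Eph receptors or below them, 4 were higher and 9 lower (22.2% and 50%). With line fitted 6 were higher and 9 lower, with Ngef (adjusted p = 0.019) and Inppl1 (0.046) added. Tiam1, a Rac exchange factor, was at 10.2 ± 1.81 against 91.7 ± 4.24 CPM (log2 fold change -3.17, adjusted p = 5.9e-09) and Vav3, an exchange factor bound by Eph receptors, at 6.86 ± 0.97 against 72.3 ± 6.07 CPM (log2 fold change -3.40, adjusted p = 3.9e-09), while its relative Vav2 rose (log2 fold change 0.55, adjusted p = 1.6e-04). Scaling to the library total alone left 2 higher and 9 lower. Of 16 tested genes below plexins, 5 were higher and 5 lower (31.2% each way; 4 and 6 genes with that scaling). Mical3, of a family of actin-oxidising enzymes, fell (log2 fold change -2.84, adjusted p = 9.0e-08), as did the collapsin response gene Dpysl3, which was at 2.19 ± 1.14 CPM in GFP-negative cells and at 0 in the GFP-positive libraries of SN2286 and SN2293, and Farp1, an exchange factor that binds plexin A, rose (log2 fold change 0.62, adjusted p = 2.4e-05).

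Among 10 tested coreceptors and other semaphorin receptors, 3 were higher and 3 lower, 30.0% each way (2 and 4 genes with scaling to the library total alone). The Ron kinase gene Mst1r was at 0.796 ± 0.391 against 20.8 ± 2.33 CPM (log2 fold change -4.67, adjusted p = 1.0e-07) and the pseudokinase gene Ptk7 at 114 ± 16.4 against 273 ± 9.55 CPM (log2 fold change -1.26, adjusted p = 1.1e-06), while Itga1, which with Itgb1 forms a Sema7a receptor, rose from 10.9 ± 1.88 to 27.2 ± 5.18 CPM (log2 fold change 1.31, adjusted p = 5.0e-05). Of 4 tested VEGF ligands of neuropilins, Pgf (at 0.0539 ± 0.0648 against 2.16 ± 1.13 CPM) and Vegfc (log2 fold change -2.65, adjusted p = 0.0071) were lower. Vegfb was higher (log2 fold change 0.52, adjusted p = 0.027, no call with that scaling). Mst1r, Pgf and Vegfc passed the filter only through their GFP-negative libraries, an entry that favours a lower call.

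Other axon guidance families were followed in the same way. Of 14 genes of the netrin family, its receptors and the repulsive guidance molecules, 10 were tested. All 10 fell, with a median log2 fold change of -1.72, against 21.8% lower over all genes tested. Unc5a, Ntng2 (mean 0.116 against 1.37 CPM) and Unc5c (0.170 against 1.66 CPM) passed the filter only through their GFP-negative libraries. So did Ntn1 (0.943 against 3.89 CPM), and such an entry favours a lower call. Ntn3, Ntn5, Dcc and Unc5d were not tested, with means of at most 0.486 CPM that were higher with GFP. The netrin receptor gene Unc5a was at 1.0 ± 0.543 against 50.9 ± 7.41 CPM (log2 fold change -5.68, adjusted p = 2.3e-08), and Rgma (-2.70) and its receptor Neo1 (-0.82) were lower as well. Of 7 tested Slit and Robo genes 5 fell (71.4%) and 0 rose, with a median of -1.40. With line fitted 1 was higher, Srgap1 (adjusted p = 0.031). Slit3 (mean 1.11 against 6.34 CPM) and Robo2 passed the filter only through their GFP-negative libraries. Robo1, a Slit receptor, was at 6.26 ± 1.44 against 122 ± 3.71 CPM (log2 fold change -4.30, adjusted p = 1.7e-09), Robo2 was at 0.225 ± 0.0569 against 10.8 ± 3.67 CPM, and Srgap3, a GTPase-activating protein bound by Robo, was lower too (log2 fold change -1.40, adjusted p = 6.5e-05). The basal and fibroblast markers given above moved with the genes that fell, as did the club markers Cyp2f2 and Cbr2. The club markers Scgb1a1 (log2 fold change 1.83) and Aldh1a1 (-0.12) had no call. The part of the marked cell types in these differences was not tested.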

How the data were processed

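The authors deposited raw read counts per gene symbol, 1 column for each of 8 libraries, as whole numbers without normalization. Per the submitters' processing notes, cutadapt 1.16, STAR 2.5.3a, featureCounts and Subread were used with the build mm9; the sources used here give neither annotation nor strandedness. PCR reads without molecular identifiers are not independent molecules.

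The computing environment was R 4.3.3 and edgeR 4.0.16. Its filterByExpr function set the low-count filter (minimum 10 per library after scaling, in 4 or more libraries, and 15 over all). TMM factors set the scale, and the quasi-likelihood test (robust, two-sided) had the sort as its only term. Adjustment after Benjamini and Hochberg covered all 12848 genes, with calls at an FDR of 0.05. The SE is the log2 fold change divided by the square root of F. A likewise fitted test of the 3 line coefficients, with sort and line as terms, compared the lines. Log2 ratios within a line used a pseudocount of 0.5 CPM. Tests were checked on simulated counts of 12848 genes. The test by sort recovered 52% of genes planted at 1.5-fold, 72% at 2-fold and 98% at 4-fold, with 14 false calls. The test of lines recovered 80% of genes planted at 3-fold in 1 line, with 28 false calls. In both tests false calls were a larger share of the calls than the FDR of 0.05, more so in the test of lines. The simulated noise came from the fit with sort alone, which holds the differences between lines. It was therefore wider than the noise that the test of lines met in the data.

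Libraries were paired by line, since both sorts of a line came from the same culture line. After removal of the group means they correlated across genes at r = 0.37, 0.46, 0.32 and 0.40 within lines SN2285, SN2286, SN2293 and SN2294. Between lines r was -0.003 or lower. Removing the means pushes these values below 0 when those within lines are above 0, so they add little. Genes are not independent replicates. Where fitting line (replicate block) changed a call, its value stands beside the result or the count of its list.

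The members, lists, pairs, promoter strings and tests were chosen with earlier results of these data known. Full values were given for the 8 called genes that rose most and the 8 that fell most, the 6 in each direction with the smallest p, the genes called between lines, and up to 3 called genes of each other list with the smallest p. Exon lengths and overlaps were taken from GENCODE M21 and promoters and neighbours from RefSeq (GRCm38.p6). That build is not mm9, so they served only for lengths, order and sequence. Alternatives tried were fitting line, DESeq2 1.42.0, scaling to the library total alone, no filter on low counts, and leaving out each library or line.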

Additional observations from a re-analysis of the deposited data

Results flagged for a closer look

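Within a group of 4 libraries, 1 library stood apart from the other 3 in 7 of 88 groups of tested guidance genes; chance gives about 1 in 20, and the cause was not tested. In GFP-positive libraries Efna2 was low in line SN2294 (0.845 CPM against 1.63 to 1.81 CPM in the others), Sema4f was low in SN2294 (25.6 against 36.3 to 37.7 CPM), Efnb3 was high in SN2293 (2.81 against 1.97 to 2.09 CPM), Nrp1 was high in SN2286 (165 against 147 to 149 CPM) and Plxnb2 was low in SN2286 (1934 against 1972 to 1978 CPM). In GFP-negative libraries Ephb6 was high in SN2285 (24.3 against 20.6 to 21.0 CPM) and Plxnd1 was low in SN2286 (46.5 against 61.4 to 63.7 CPM). For Nrp1 and Plxnb2 the gap is small beside the level.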

How the results depend on the processing

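Of the 12 guidance genes called higher and 15 called lower, the counts with other settings were 11 to 17 and 12 to 20. The calls of Efna3, Efna4 and Epha3 were lost when a library was left out and that of Plxnb1 with scaling to the library total alone; the other 23 kept their call under every alternative tried. With line as a term (replicate block) 7 ligands were higher in place of 4. Calls changed by that fit are named beside their lists. Leaving out a library or a line gave 4 to 9 ligands higher, the 9 without SN2294 and with line fitted. Scaling to the library total alone gave 10 receptors lower in place of 6. In the comparison of lines, no filter on low counts gave 1090 genes in place of 683 and 5 guidance genes in place of 3, the likelihood ratio test of DESeq2 gave 5, and leaving out a line gave 2 to 5 (the 5 without SN2294). Uncalled genes changed sign as follows. With scaling to the library total alone Efnb2 went to a log2 fold change of -0.019, Plxnc1 to -0.069 and Sema4d to -0.035. Leaving out 1 library gave -0.37 to 0.053 for Efna2, -0.086 to 0.43 for Plxnc1 and -0.26 to 0.14 for Sema6c. Leaving out a line with line fitted gave 0.12 for Efna2 without SN2294, -0.045 and -0.012 for Plxnc1 without SN2285 or SN2293, and 0.24 for Sema6c without SN2294. The cause was not tested, except that scaling to the total moves all genes together. Genes that did not reach about 10 counts in 4 libraries were out of reach of the test. A gene low in 1 sort could still enter through the other, as Epha3, Sema6a, Dpysl3 and Pgf did, among others. In the other lists Mst1r, Vegfc, Ntn1, Ntng2, Unc5a, Unc5c, Slit3 and Robo2 did so too. The 5910344 counts of the GFP-negative library of SN2294 limit low genes such as Epha3 and Sema6a most.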
